A study of Arabidopsis thaliana with 15 samples.

Results

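A set of 30 genes was lower in rosette leaves of both double knockouts of the antiporter genes NHX5 and NHX6. In each single knockout their means were less than 0.2 deposited units below wild type, or above it. The members were chosen by their measured values. A probe set annotated to 1 nuclear gene was taken when its genotype mean lay at least 0.5 deposited units below the wild type mean in nhx5-2/nhx6-2 and in nhx5-1/nhx6-1, and its mean in nhx5-2 and in nhx6-2 was above −0.2 units against wild type. These limits were met by 32 of 13415 nuclear probe sets, and 30 remained after 10 named genes were left out of the set. A further 96 nuclear probe sets lay at −0.5 or less in both double knockouts without being members.

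The arrays compared 5 genotypes of Arabidopsis thaliana in the Columbia ecotype, with 3 biological replicates each. They were the nhx5-2/nhx6-2 double knockout, the nhx5-1/nhx6-1 double knockout made from other alleles of the same genes, the nhx5-2 single knockout, the nhx6-2 single knockout and wild type. Single knockouts of the nhx5-1 and nhx6-1 alleles are not analysed here, so both singles share their alleles with 1 of the double lines. All plants were 4 weeks old, grown in soil under 8 h light and 16 h dark, and RNA of rosette leaves was hybridized to the Affymetrix Arabidopsis genome array. Neither NHX5 nor NHX6 has a probe set in the annotation used, and the knockouts themselves could not be checked on these arrays.

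NHX5 and NHX6 are sodium and potassium for proton exchangers of the Golgi, trans-Golgi network and prevacuolar compartments. They move cations inward against an outward flow of protons and so set the pH of these compartments, through which wall polysaccharides, secreted enzymes and vacuolar proteins travel. The pair is known to be redundant, and plants without both are small, with reduced cell size and number.

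Values are a log-like score of unstated base. Over 9 hybridization spike-in probe sets the score went up by 0.681 units per doubling of nominal concentration, so that 1 unit stood for about 2.77-fold. Older probe sets for the same spike-ins gave 0.614 units per doubling, or about 3.09-fold per unit, so folds are approximate. The median signal of 27 control probe sets with no target in plant RNA lay between −0.81 and −0.57 on the 15 arrays, which marks the bottom of the scale. All 30 genes had wild type means above that range. On the yardstick of 2.77-fold per unit, used for all folds here, the members were 1.66-fold to 4.08-fold lower in the double knockouts. The medians were 1.88-fold in nhx5-2/nhx6-2 and 1.90-fold in nhx5-1/nhx6-1.

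By role, the members comprised 6 genes for making or modifying the cell wall, 6 for protein synthesis, 3 proteases, 2 lipases, 2 leucine-rich repeat proteins, 2 membrane carriers, 1 actin, 1 light-harvesting protein, 1 RNA-binding protein and 6 to which no role is given here. A gene must stand above the bottom of the scale in wild type to lie 0.5 units lower in a mutant, so the limits themselves favour bright probe sets. The members' median wild type level was 1.14 units, with a range of 0.22 to 3.26, and 29 of 30 lay at or above the 75th percentile of all 22746 probe sets tested. The 96 other nuclear probe sets at −0.5 or less in both doubles were at similar levels, with a median of 1.25 units and 92 of 96 at or above that percentile.

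**Figure D1:**
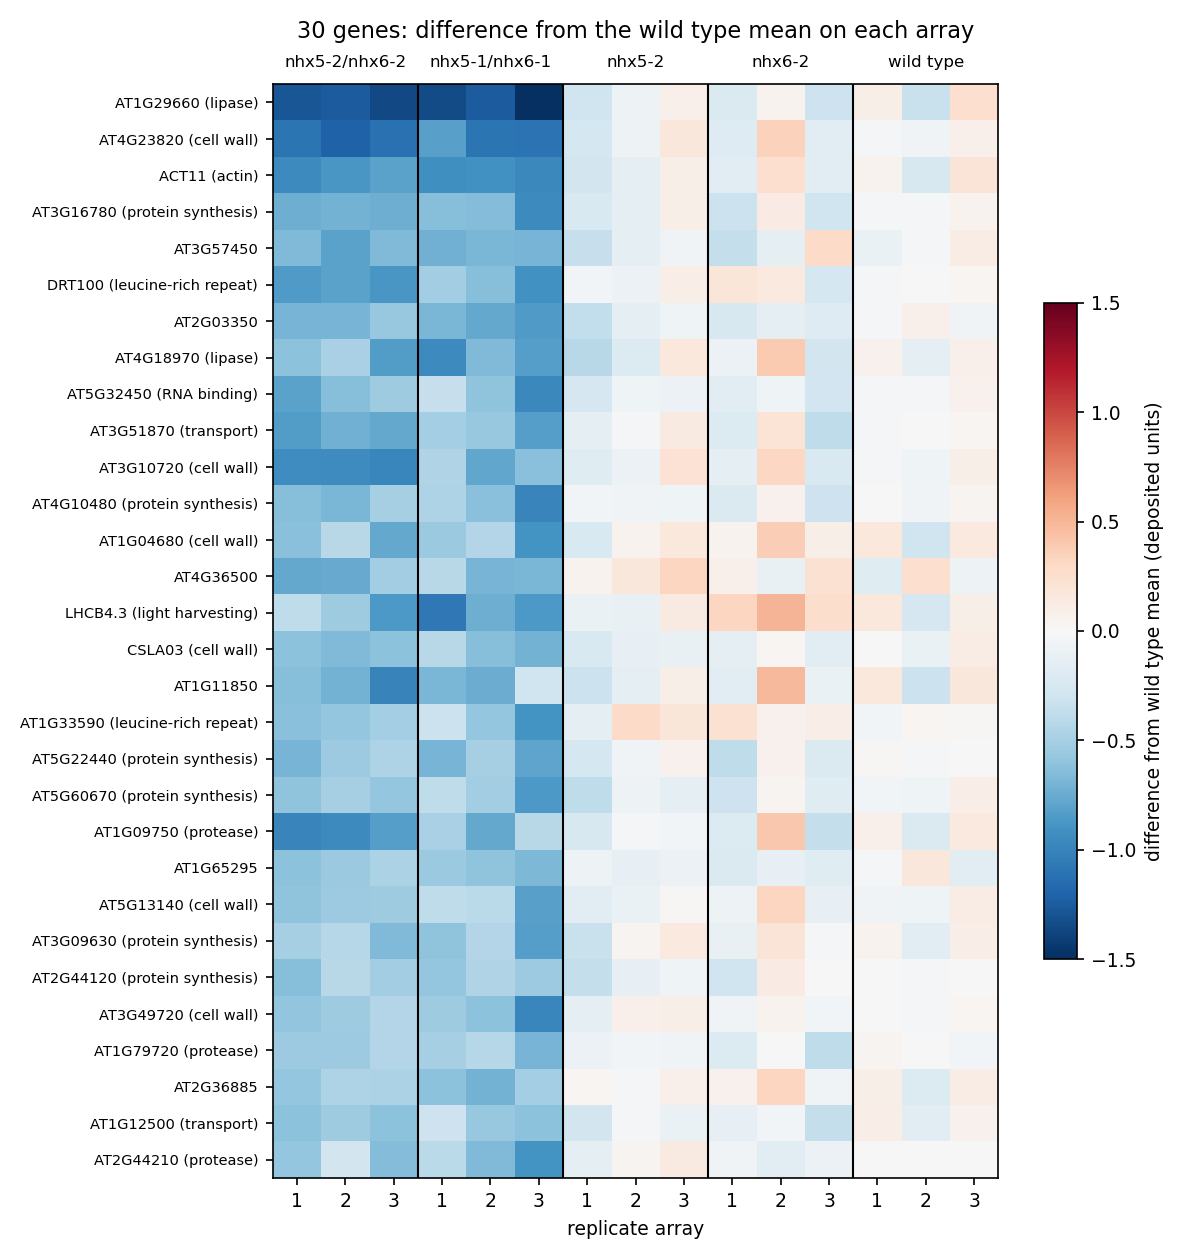
Each row is 1 of the 30 genes, ordered by the smaller of its double knockout differences, and each column is 1 array. Colour gives the difference from the wild type mean in deposited units. The 6 double knockout arrays are blue throughout, while the single knockout and wild type arrays hold both signs.

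All 30 members passed limma's test at an adjusted p of 0.05 as lower in nhx5-2/nhx6-2, where 5.54% of all probe sets did, and 29 passed as lower in nhx5-1/nhx6-1, where 6.9% did. These counts describe genes picked for the same differences and are no test of them. The median difference of the members was −0.62 units in nhx5-2/nhx6-2 and −0.63 in nhx5-1/nhx6-1, against a median of 0.00 and 0.01 for all probe sets. In the singles the median was −0.08 units in nhx5-2 and −0.06 in nhx6-2. No member passed the test in nhx5-2, where 0.0615% of probe sets passed as lower, and none in nhx6-2, where 0.264% did. At an unadjusted p under 0.05, 1 member differed from wild type in nhx5-2 and 4 in nhx6-2.

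The arrays are described one by one as follows, on the same values that chose the members. In 29 members all 6 double knockout arrays lay below all 3 wild type arrays, which 9.5% of all probe sets showed. In 28 members they also lay below the 6 single knockout arrays, against 2.69% of all probe sets. The exceptions were AT1G11850 and AT1G12500. The choice of members favours both counts, and nothing is read from their distance to the shares of all probe sets. As the samples are bulk leaf tissue, fewer cells of a type and less RNA per cell cannot be told apart.

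Of the 6 wall genes, 5 encode enzymes or enzyme-family proteins of pectin and mannan metabolism, and AT5G13140 encodes a protein of the Ole e 1 and extensin family. Their median difference was −0.62 units in each double knockout, −0.04 in nhx5-2 and −0.01 in nhx6-2. AT4G23820, of the polygalacturonase-like pectin lyase fold family, read −0.13, −0.25 and −0.15 units in nhx5-2/nhx6-2, 0.15, −0.13 and −0.14 in nhx5-1/nhx6-1, 0.70, 0.89 and 1.14 in nhx5-2, 0.77, 1.31 and 0.81 in nhx6-2, and 0.94, 0.92 and 1.04 in wild type. The double knockout arrays were apart from every other array, and the single knockouts spread to both sides of wild type. The mean differences from wild type were −1.14 ± 0.14 and −1.01 ± 0.14 units (SE) in nhx5-2/nhx6-2 and nhx5-1/nhx6-1, or 3.19-fold and 2.78-fold lower on the spike-in yardstick.

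AT3G10720, a pectin methylesterase gene, whose product removes methyl groups from pectin in the wall, had −0.04, −0.06 and −0.09 units in nhx5-2/nhx6-2, 0.43, 0.11 and 0.26 in nhx5-1/nhx6-1, 0.70, 0.80 and 1.1 in nhx5-2, 0.76, 1.19 and 0.66 in nhx6-2, and 0.87, 0.82 and 0.97 in wild type. All nhx5-1/nhx6-1 arrays were between the nhx5-2/nhx6-2 arrays and the rest. AT3G49720 (CGR2) acts at an earlier step, adding methyl groups to pectin in the Golgi. It read 1.06, 1.12 and 1.22 units in nhx5-2/nhx6-2, 1.12, 1.04 and 0.67 in nhx5-1/nhx6-1, 1.5, 1.73 and 1.74 in nhx5-2, 1.61, 1.71 and 1.62 in nhx6-2, and 1.64, 1.64 and 1.69 in wild type. Both singles were at the wild type level in this gene, with mean differences of 0.00 and −0.01 units in nhx5-2 and nhx6-2.

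CSLA03, of the cellulose synthase-like A family of Golgi mannan synthases, was the dimmest member in wild type. Its values were −0.39, −0.44 and −0.40 units in nhx5-2/nhx6-2, −0.19, −0.42 and −0.48 in nhx5-1/nhx6-1, −0.01, 0.10 and 0.11 in nhx5-2, 0.08, 0.25 and 0.06 in nhx6-2, and 0.22, 0.12 and 0.33 in wild type. The double knockout arrays did not overlap the others and came near the no-target level. AT1G04680, a pectate lyase family gene, differed by −0.60 and −0.63 units in nhx5-2/nhx6-2 and nhx5-1/nhx6-1, and AT5G13140 by −0.56 and −0.54.

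Other wall genes that could be matched by name were mostly dim in these leaves. The list held 33 expansin, xyloglucan endotransglucosylase and pectin genes matched by name. Matching by name missed genes known by locus, among them the members AT4G23820, AT3G10720 and AT1G04680, and no member was on the list. Of the 33 genes, 3 passed as lower and 2 as higher in nhx5-2/nhx6-2, and 4 as lower and 1 as higher in nhx5-1/nhx6-1. Their medians were −0.02 and −0.01 units in these lines. The median wild type level of these 33 genes was at the 38.5th percentile of all probe sets, so that most had little room for a fall of the members' size, and the medians say nothing of whether wall genes moved as a group. EXLA1, an expansin-like gene, fell by 1.14 and 0.97 units in nhx5-2/nhx6-2 and nhx5-1/nhx6-1, while the expansin gene EXPA16 rose by 1.00 and 0.56. Neither change was confined to the doubles. EXLA1 differed by −0.41 units in nhx5-2 and by −0.69 in nhx6-2, where it passed limma's test (adjusted p = 0.0206). EXPA16 differed by 0.27 and 0.53 units in nhx5-2 and nhx6-2 without passing. The list for cellulose synthesis matched 9 genes, which were cellulose synthase-like genes of the A, C and D families and COB (COBRA), and no cellulose synthase itself. CSLA03 was the one that passed as lower in either double line, and CSLD2 was higher in nhx5-1/nhx6-1 by 0.23 units.

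The lipase gene AT1G29660 had the largest difference of the set. Its product belongs to the GDSL family of secreted lipases and esterases. The array values were 1.98, 2.01 and 1.91 units in nhx5-2/nhx6-2, 1.91, 2.01 and 1.71 in nhx5-1/nhx6-1, 2.96, 3.19 and 3.33 in nhx5-2, 3.04, 3.32 and 2.95 in nhx6-2, and 3.35, 2.92 and 3.51 in wild type. The highest double knockout array was 0.91 units under the lowest array of the other genotypes, and the singles overlapped wild type. The mean differences of −1.29 ± 0.14 and −1.38 ± 0.14 units (SE) correspond to 3.73-fold and 4.08-fold lower signal in nhx5-2/nhx6-2 and nhx5-1/nhx6-1. The second GDSL lipase gene, AT4G18970, differed by −0.64 and −0.81 units in these lines.

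ACT11 encodes an actin, the subunit of the filaments along which Golgi bodies and vesicles move. It read −0.46, −0.38 and −0.31 units in nhx5-2/nhx6-2, −0.42, −0.42 and −0.48 in nhx5-1/nhx6-1, 0.22, 0.35 and 0.58 in nhx5-2, 0.34, 0.74 and 0.32 in nhx6-2, and 0.55, 0.25 and 0.68 in wild type. The double knockouts were tight and separate from the rest, at 2.44-fold and 2.58-fold below wild type in nhx5-2/nhx6-2 and nhx5-1/nhx6-1. Like those of CSLA03, these values came near the no-target level, where the bottom of the scale limits folds and spread. ACT12, the other actin gene with its own probe set here, lay near the no-target level in every genotype and differed by 0.03 and 0.04 units. Of the 11 genes in the list of tubulins, actins and tubulin-folding factors, 3 passed as lower in nhx5-2/nhx6-2 (ACT11, TUB5 and TUB7) and 3 in nhx5-1/nhx6-1 (ACT11, TUA1 and TUB7). TUB7, a beta-tubulin gene, fell by 0.42 and 0.43 units.

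**Figure D2:**
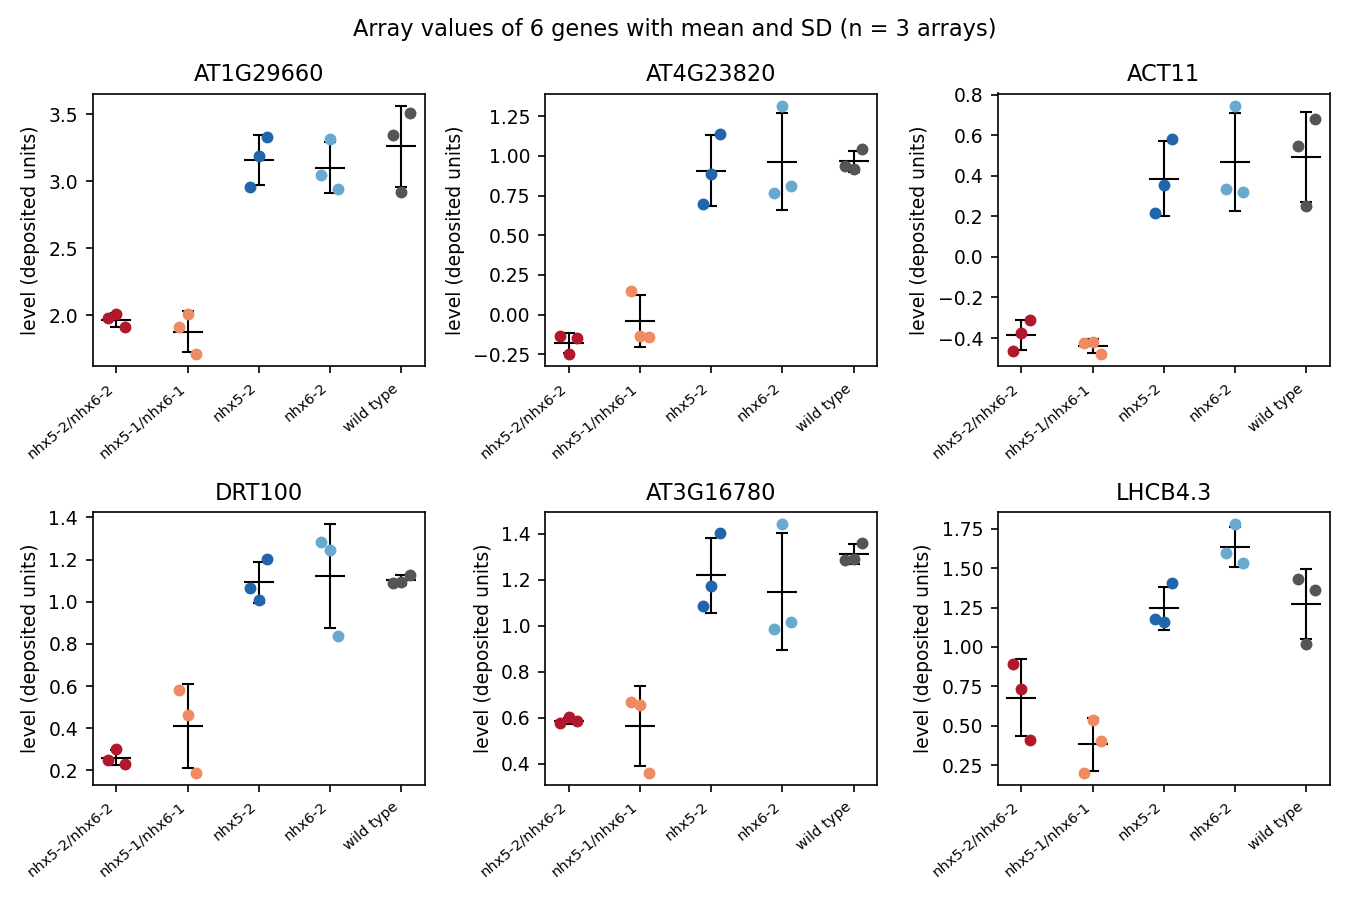
Points are single arrays, bars the mean and SD of 3 arrays, and the vertical axis the level in deposited units. In all 6 genes the double knockouts lie below the other genotypes, and in LHCB4.3 the nhx6-2 arrays lie above wild type.

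DRT100 and AT1G33590 encode leucine-rich repeat proteins, a protein-binding repeat found in many secreted and receptor proteins. DRT100 had 0.25, 0.30 and 0.23 units in nhx5-2/nhx6-2, 0.58, 0.46 and 0.19 in nhx5-1/nhx6-1, 1.07, 1.01 and 1.20 in nhx5-2, 1.28, 1.24 and 0.84 in nhx6-2, and 1.09, 1.09 and 1.13 in wild type. Its means in the singles were 0.01 units under and 0.02 over wild type in nhx5-2 and nhx6-2, with the nhx6-2 arrays wide apart. AT1G33590 differed by −0.57 and −0.60 units in nhx5-2/nhx6-2 and nhx5-1/nhx6-1, and by 0.11 and 0.13 in nhx5-2 and nhx6-2.

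Among the proteases, AT1G09750, an aspartyl protease gene, read 0.64, 0.68 and 0.81 units in nhx5-2/nhx6-2, 1.14, 0.86 and 1.22 in nhx5-1/nhx6-1, 1.39, 1.60 and 1.60 in nhx5-2, 1.43, 2.04 and 1.28 in nhx6-2, and 1.71, 1.41 and 1.77 in wild type. The highest nhx5-1/nhx6-1 array was close to the lowest nhx6-2 array. AT1G79720, of the same family, differed by −0.51 and −0.54 units in nhx5-2/nhx6-2 and nhx5-1/nhx6-1. This gene lies 11 gene positions from NHX6 and was lower in nhx6-2 by 0.20 units, at the edge of the limit. AT2G44210, of a putative peptidase family, differed by −0.50 and −0.65 units. It lies 11 gene positions from the ribosomal member AT2G44120, the nearest pair in the set, and the 30 genes were spread over chromosomes 1 to 5 as 9, 5, 8, 4 and 4.

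LHCB4.3 encodes a minor antenna protein that carries light energy to photosystem II. It read 0.89, 0.74 and 0.41 units in nhx5-2/nhx6-2, 0.20, 0.54 and 0.40 in nhx5-1/nhx6-1, 1.17, 1.16 and 1.40 in nhx5-2, 1.59, 1.78 and 1.53 in nhx6-2, and 1.43, 1.02 and 1.36 in wild type. The double knockouts were below every other array, and all nhx6-2 arrays were above wild type, with a mean difference of 0.36 ± 0.13 units (SE) that did not pass limma's test (adjusted p = 0.504). The other 7 nuclear photosynthesis genes on the list passed in neither double line, with medians of 0.04 units in nhx5-2/nhx6-2 and −0.22 in nhx5-1/nhx6-1. The sister genes LHCB4.1 and LHCB4.2 differed by 0.04 and 0.17 units in nhx5-2/nhx6-2, and by −0.28 and −0.10 in nhx5-1/nhx6-1.

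The carriers were AT3G51870, of the mitochondrial carrier family, and AT1G12500, of the nucleotide-sugar and sugar-phosphate translocator family. They differed by −0.77 and −0.59 units in nhx5-2/nhx6-2, and by −0.64 and −0.50 in nhx5-1/nhx6-1. AT5G32450, an RNA-binding protein gene, differed by −0.65 and −0.64 units in nhx5-2/nhx6-2 and nhx5-1/nhx6-1. Of the 6 genes without a role given here, AT3G57450 had −0.71 and −0.70 units in these lines. AT2G03350 differed by −0.66 ± 0.07 and −0.76 ± 0.07 units (SE), and AT4G36500 differed by −0.68 and −0.60.

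AT1G11850 was the least settled member. It read −0.02, −0.09 and −0.38 units in nhx5-2/nhx6-2, −0.07, −0.12 and 0.32 in nhx5-1/nhx6-1, 0.30, 0.49 and 0.71 in nhx5-2, 0.46, 1.11 and 0.52 in nhx6-2, and 0.78, 0.30 and 0.79 in wild type. One nhx5-1/nhx6-1 array exceeded a wild type array, and this was the member that did not pass in that line. AT1G65295 and AT2G36885 completed the set, at −0.55 and −0.50 units in nhx5-2/nhx6-2, and −0.61 in both in nhx5-1/nhx6-1.

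The 6 protein synthesis genes were among the brightest members, between the 91.9th and 98.0th percentiles in wild type. They were AT3G16780, AT5G22440, AT5G60670, AT3G09630 and AT2G44120, which encode the large-subunit ribosomal proteins RPL19, RPL10a, RPL12, RPL4 and RPL7, and AT4G10480, an alpha subunit of the nascent polypeptide-associated complex that binds new proteins at the ribosome. Their median differences were −0.56 units in nhx5-2/nhx6-2, −0.64 in nhx5-1/nhx6-1, −0.09 in nhx5-2 and −0.15 in nhx6-2. AT3G16780 read 0.58, 0.60 and 0.58 units in nhx5-2/nhx6-2, 0.67, 0.66 and 0.36 in nhx5-1/nhx6-1, 1.09, 1.17 and 1.40 in nhx5-2, 0.99, 1.44 and 1.02 in nhx6-2, and 1.29, 1.29 and 1.36 in wild type. The doubles stood apart, with the single arrays reaching both above and below wild type. AT4G10480 differed by −0.61 and −0.69 units in nhx5-2/nhx6-2 and nhx5-1/nhx6-1.

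Cytosolic ribosomal protein genes were lower more widely than the 5 members. Of 113 measured genes of both subunits, 41 fell in nhx5-2/nhx6-2 and 60 in nhx5-1/nhx6-1, all 41 being among the 60, and none rose in either line, where 4.27% of all probe sets rose in nhx5-2/nhx6-2 and 5.13% in nhx5-1/nhx6-1. Without the members, 36 of 108 genes fell in both lines, beside 4.15% of all probe sets. That share includes many dim probe sets with little room for a fall. The large-subunit and small-subunit genes outside the set had median wild type levels at the 96.0th and 96.7th percentiles. The 66 large-subunit genes that were not members had median differences of −0.23 units in nhx5-2/nhx6-2 and −0.33 in nhx5-1/nhx6-1, and the 42 small-subunit genes −0.23 and −0.29. After quantile normalization these medians were −0.21 and −0.21 units for the large subunit, and −0.22 and −0.18 for the small subunit, so the lower values in nhx5-1/nhx6-1 depended on the scaling. None of the 113 passed in a single knockout, where the medians over both subunits were −0.09 units in nhx5-2 and −0.04 in nhx6-2. Most still lay below wild type there. In nhx5-2 it was 62 of 71 large-subunit and 36 of 42 small-subunit genes, and in nhx6-2 it was 51 and 29. These lists were drawn up after the ribosomal members had been seen.

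**Figure D3:**
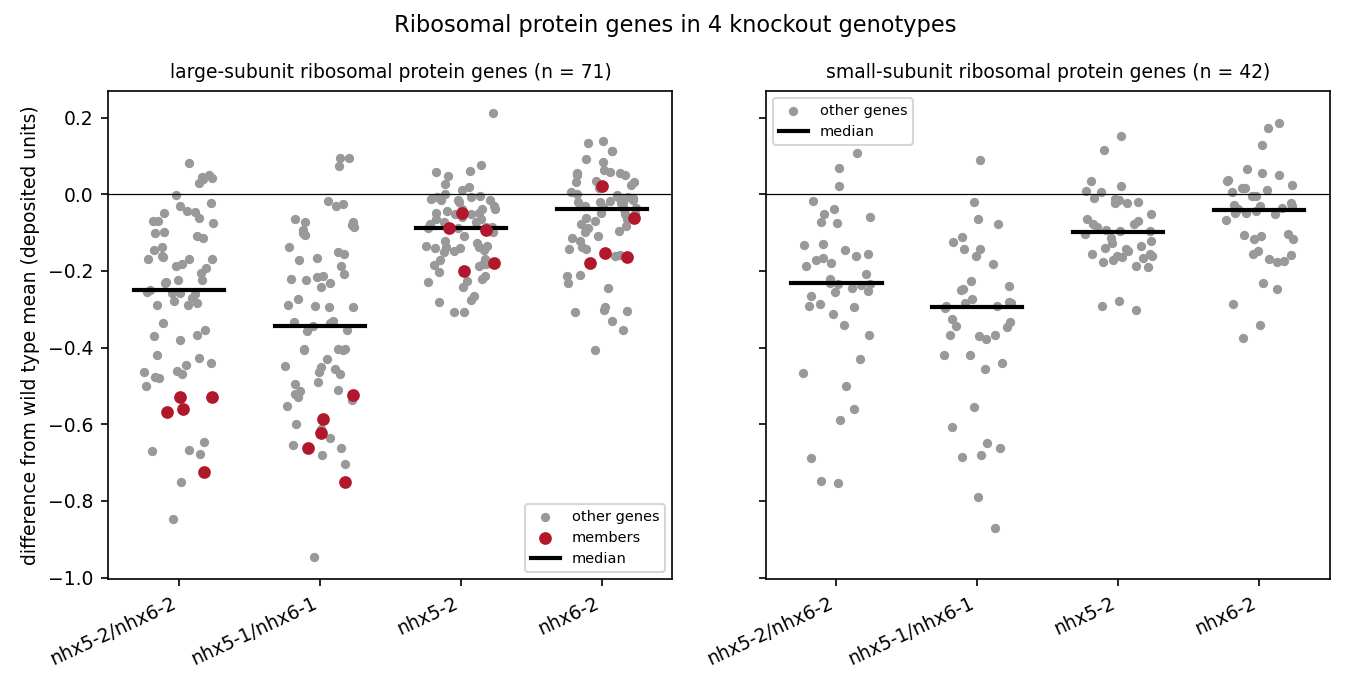
Each point is a ribosomal protein gene, with its difference from the wild type mean in deposited units in 4 knockout genotypes. Red points are members, and bars are medians over all genes shown. The clouds sit lower in the double knockouts, and the members lie within them.

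The limit on the single knockouts divided the most affected ribosomal genes. Over both subunits 16 genes were at −0.5 or less in both double lines, of which 5 were members. The other 11 failed the limit in nhx6-2, at −0.41 to −0.23 units, for example AT1G80750 of the RPL7 family, with −0.68 and −0.66 units in nhx5-2/nhx6-2 and nhx5-1/nhx6-1 and −0.22 and −0.35 in nhx5-2 and nhx6-2. None of those single knockout differences passed the test.

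Close copies of the ribosomal members did not all move with them. The second RPL4 gene, AT5G02870, fell by 0.43 and 0.47 units in nhx5-2/nhx6-2 and nhx5-1/nhx6-1, and the RPL12 gene AT3G53430 by 0.37 and 0.51. In contrast the RPL19 gene AT4G02230 differed by 0.04 and −0.07 units and the RPL7 gene AT3G13580 by 0.05 and 0.10, neither passing the test. The RPL10a gene AT1G08360 differed by −0.29 and −0.27 units without passing. In the 3 measured genes of the nascent polypeptide-associated complex, the beta subunit gene AT1G73230 passed in nhx5-1/nhx6-1 with −0.41 units, and AT3G12390 passed in neither line, with 0.03 and −0.18.

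For other lists the counts passing as lower stood near the shares of all probe sets given above, or rested on 1 or 2 genes. In nhx5-2/nhx6-2 and nhx5-1/nhx6-1 they were 1 and 1 of 11 auxin response genes of the IAA and GH3 families, 1 and 2 of 19 redox genes, 1 and 2 of 14 SWEET sugar transporter genes, 2 and 2 of 34 transcription factor genes, 1 and 1 of 4 flavonoid genes, 0 and 1 of 8 histone genes and 0 and 1 of 12 vacuolar and endosomal trafficking genes. Nothing about these classes is read from the counts. In the trafficking list 2 genes rose in each line, VPS20.1 in both by 0.30 and 0.34 units.

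The double lines were also compared directly. Both lines had to be at −0.5 or less for a gene to be a member, so the choice of members favours lines that are alike, and the values are a description. The median over the 30 members of nhx5-1/nhx6-1 minus nhx5-2/nhx6-2 was −0.03 units, with a range of −0.30 to 0.36. None passed limma's test in either direction, a count near the 0.378% of all probe sets that did, and 3 had an unadjusted p under 0.05. The largest positive differences were those of AT1G09750 (0.36 units, adjusted p = 0.383), AT3G10720 (0.33 units, adjusted p = 0.295) and AT1G11850 (0.20 units, adjusted p = 0.720), and the largest negative ones those of LHCB4.3 (−0.30 units, adjusted p = 0.386), AT3G49720 (−0.19 units, adjusted p = 0.454) and AT4G18970 (−0.17 units, adjusted p = 0.740). In AT1G09750 and AT3G10720 every nhx5-1/nhx6-1 array was above every nhx5-2/nhx6-2 array, which 7.49% of probe sets showed. The opposite order was seen in 0 members and in 9.88% of probe sets. With SEs of 0.07 to 0.19 units, differences of the sizes seen here could not be told from replicate spread.

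Against the single knockouts, which the choice of members also used, 26 members passed as lower in nhx5-2/nhx6-2 than in nhx5-2, as 2.69% of all probe sets did, and 26 as lower than in nhx6-2, as 2.13% did. Both tests were passed by 23. These counts were sensitive to the arrays used. Against nhx5-2 the count was 15 without nhx5-2/nhx6-2 replicate 1, and 17 without nhx5-2 replicate 2 or without nhx5-2 replicate 3. Against nhx6-2 it was 10 without nhx5-2/nhx6-2 replicate 1, 17 without replicate 3 of that line and 14 without nhx6-2 replicate 2. With the 3′ minus 5′ signal of the arrays, a measure of RNA quality, as a covariate it was 0 in both comparisons. The non-additive effect is the difference of nhx5-2/nhx6-2 from wild type after both single knockout differences are taken off it. It was negative in all 30, as the limits require, with a median of −0.51 units and a range of −1.08 to −0.21. No member passed limma's test of it (lowest adjusted p = 0.0584 for AT4G23820), where 0.0528% of all probe sets passed as negative, and 23 had an unadjusted p under 0.05. The SE of this effect had a median of 0.17 units. It passed in 8 members when only the 4 genotypes involved were fitted, in 9 after quantile normalization, in 8 without both arrays of narrow spread (nhx5-2 replicate 1 and nhx5-1/nhx6-1 replicate 3) and in 5 without nhx6-2 replicate 3.

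The edge between members and other genes was narrow relative to these errors. Just inside the limit of −0.5 were AT2G44210 (−0.50 and −0.65 in nhx5-2/nhx6-2 and nhx5-1/nhx6-1), AT1G12500 (−0.59 and −0.50) and AT2G36885 (−0.50 and −0.61). Just outside were AT3G28200 (−0.49 and −0.50) and, short of the limit by less than the rounding, AT2G32060 (−0.50 and −0.65) and AT1G66940 (−0.53 and −0.50). Just inside the single knockout limit were AT5G60670, AT1G79720 and AT2G03350, each with a single at −0.20 or −0.19 units. Just outside were AT2G10940 (−0.20 in nhx5-2, with −1.15 and −1.05 in the double lines), TBL45 (−0.20 in nhx6-2) and AT5G62730 (−0.20 in nhx6-2).

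**Figure D4:**
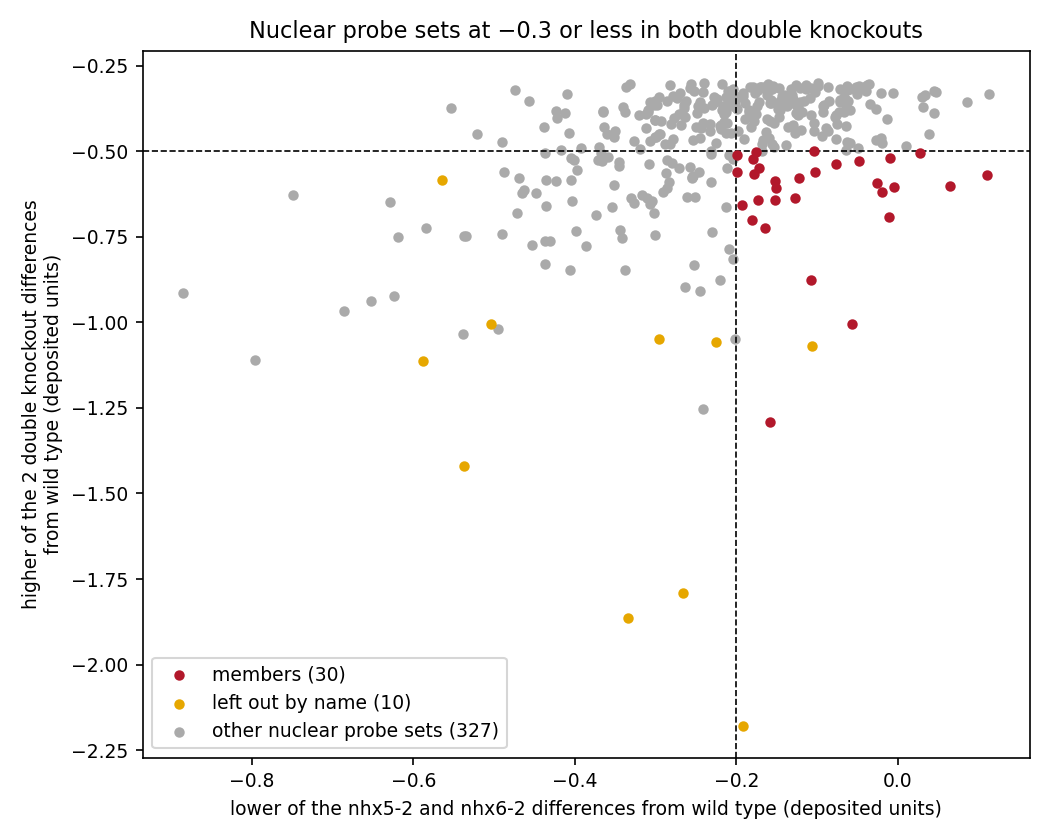
Nuclear probe sets at −0.3 or less in both double knockouts are plotted by the lower of the nhx5-2 and nhx6-2 differences (horizontal) and the higher of the double knockout differences (vertical), in deposited units. Dashed lines are the limits of −0.5 and −0.2. The points run across both lines without a gap.

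Of the 30 members, 19 had a single knockout below −0.1 units and 12 had one above 0. With a median SE of 0.12 units for a difference from wild type, a single knockout change of the size of the limit could not be told from none. Membership moved with single arrays. Leaving out 1 array at a time left 19 to 42 probe sets meeting the limits, with 19 without nhx6-2 replicate 2 and 42 without nhx6-2 replicate 3, and between 18 and 30 of the members still met them. The fewest members, 18, remained without wild type replicate 2.

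Averaged over the 30 members, the arrays differed from the wild type mean by −0.71, −0.66 and −0.69 units in nhx5-2/nhx6-2, by −0.60, −0.66 and −0.81 in nhx5-1/nhx6-1, by −0.21, −0.05 and 0.05 in nhx5-2, by −0.12, 0.14 and −0.14 in nhx6-2, and by 0.02, −0.08 and 0.06 in wild type. Within a genotype the members shifted together, and nhx5-2 replicate 1 was the lowest array of its genotype in 25 of 30 members. This array and nhx5-1/nhx6-1 replicate 3, the lowest of its line in 21 of 30, had the narrowest spread of values over all probe sets, with SDs of 0.80 and 0.76 units, against 0.88 to 0.89 on the others. The ribosomal genes outside the set did not follow the mean of all members on every array. In nhx6-2 the members were at −0.12 and −0.14 units on replicates 1 and 3, and the 66 large-subunit genes outside the set at −0.20 and −0.06. The 6 protein synthesis members were likewise lower on replicate 1, at −0.28 units against −0.17 on replicate 3. The 66 genes averaged −0.22 units on nhx5-2 replicate 1, near the −0.28, −0.24 and −0.23 of the nhx5-2/nhx6-2 arrays. Without both arrays of narrow spread, 30 members passed in each double line.

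**Figure D5:**
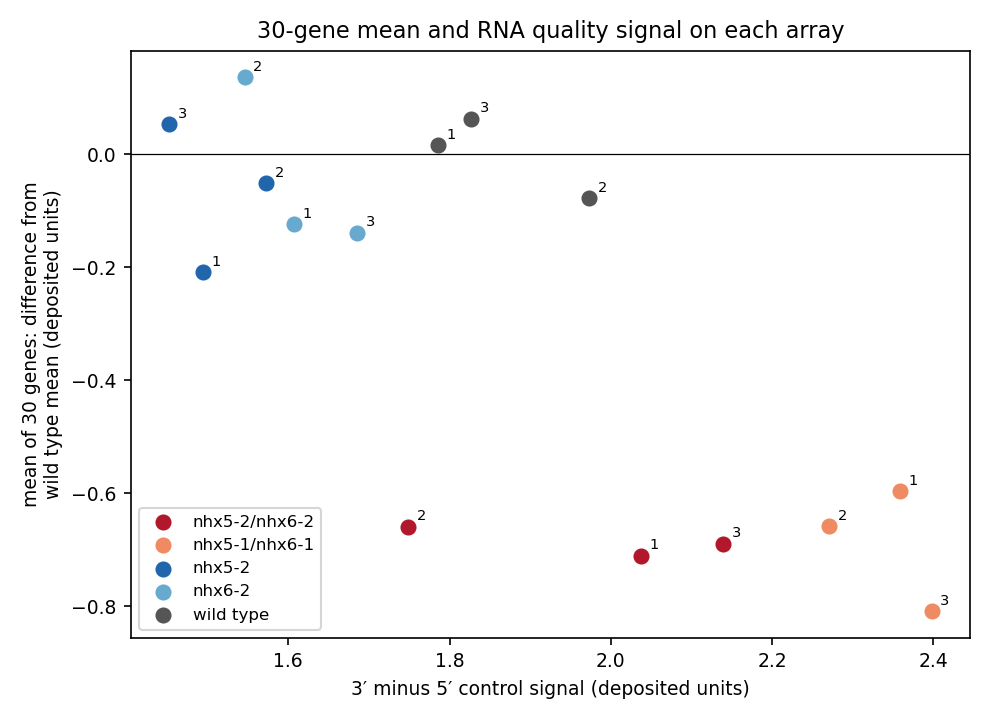
Each point is 1 array, numbered by replicate. The horizontal axis is the signal of 3′ minus 5′ control probe sets and the vertical axis the mean difference of the 30 members from the wild type mean, both in deposited units. Horizontally, the nhx5-2/nhx6-2 arrays lie on both sides of wild type, and every single knockout array lies to the left of all other arrays. Vertically, all double knockout arrays lie below the rest.

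RNA quality moved with genotype. The 3′ minus 5′ signal of actin and GAPDH control probe sets, which is higher in degraded RNA, was 2.04, 1.75 and 2.14 units in nhx5-2/nhx6-2, 2.36, 2.27 and 2.40 in nhx5-1/nhx6-1, 1.49, 1.57 and 1.45 in nhx5-2, 1.61, 1.55 and 1.69 in nhx6-2, and 1.79, 1.97 and 1.83 in wild type. The nhx5-1/nhx6-1 arrays were above all others. The nhx5-2/nhx6-2 arrays lay on both sides of wild type, with replicate 2 below and replicates 1 and 3 above all wild type arrays. Every single knockout array, at 1.69 units or less, was below every wild type and double knockout array. Between the double and single knockouts, effects of RNA quality and of genotype therefore cannot be told apart. The same holds for nhx5-1/nhx6-1 against wild type, for each single knockout against wild type and for the double lines against each other. The ranges of nhx5-2/nhx6-2 and wild type overlapped in this signal. These limits apply to the ribosomal protein genes as well as to the members. With this signal as a covariate, 27 members passed as lower in nhx5-2/nhx6-2 and 1, AT2G03350, in nhx5-1/nhx6-1. The median difference was then −0.59 units in nhx5-2/nhx6-2 and −0.44 in nhx5-1/nhx6-1, while the median SE in nhx5-1/nhx6-1 became 0.22 units, against 0.12 without the covariate.

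Markers of other tissues could be checked in part. The leaf gene RCA, rubisco activase, was bright in all genotypes, with means of 5.41 units in nhx5-2/nhx6-2, 5.12 in nhx5-1/nhx6-1, 5.12 in nhx5-2, 5.41 in nhx6-2 and 5.42 in wild type. The root gene PYK10 was higher in nhx5-1/nhx6-1 by 0.32 units (limma adjusted p = 0.0072), with means of −0.39 units in nhx5-1/nhx6-1 and −0.71 in wild type, the last within the no-target range, and its part in the members' values was not tested. The meristem gene CLV3 was at the no-target level throughout, and the guard cell gene FMA differed by −0.03 and 0.00 units in nhx5-2/nhx6-2 and nhx5-1/nhx6-1. No flower, trichome, vascular or epidermal marker on the list was matched to a probe set.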

How the data were processed

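Rosette leaf RNA (6 µg per sample, labelled with biotin, per the labels' protocols) was hybridized to 15 ATH1 arrays. The deposited table holds 1 score per probe set and array, made by the authors in a way not given in the sources used here; its values are log-like, of unstated base, and were used as deposited. Of 22810 probe sets, 64 controls were left out. Of the 22746 tested, 13513 had 1 gene in the annotation table, 503 several and 8730 were not listed. Gene positions relative to each other came from the TAIR10.1 gene table, to which 30 of 30 members were matched.

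Genotype means were estimated together from the 15 arrays in limma 3.58.1 (lmFit and eBayes, R 4.3.3), with Benjamini-Hochberg adjustment over all 22746 probe sets and a threshold of 0.05. The fit was also run on simulated arrays with noise drawn independently for each probe set and array. These lacked the shifts shared by genes within an array that are described above, so the run is no check of the p-values here. P-values measure the spread between the labelled biological replicates, and 3 arrays per genotype limit the precision.

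The members, the gene lists and the rule for named genes were chosen with earlier results of these data known. Roles come from general knowledge. Genes were named by this rule: the first 20 members by the smaller double knockout difference, the 3 with the largest line differences each way, up to 4 per list, and those next to the limits; the others complete the set, and the ribosomal copies and list examples were named after their values were seen. Alternatives were shifted medians, quantile normalization, leaving out dim probe sets, fitting compared genotypes only, a replicate block, the 3′ minus 5′ covariate and leaving out arrays. No other probe set was annotated to a member gene. Lists by name whose matches were few and held other gene classes were not used, and promoters were not used here.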

Additional observations from a re-analysis of the deposited data

How the results depend on the processing

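The members' direction in the double knockouts was kept under all alternatives run, except that AT1G04680 in nhx5-1/nhx6-1 was at 0.013 units with the 3′ minus 5′ covariate, against −0.63. That covariate left 1 member passing as lower in nhx5-1/nhx6-1, and 0 as lower in nhx5-2/nhx6-2 than in nhx5-2 or than in nhx6-2; the cause was not tested. Of the members' differences from wild type under alternatives, 707 kept their side of the threshold, 68 lost it, 4 gained it and 1 changed sign. Leaving out 1 array gave 23 to 30 members lower in nhx5-2/nhx6-2, 26 to 30 in nhx5-1/nhx6-1, 15 to 25 lower in nhx5-2/nhx6-2 than in nhx5-2 (15 without nhx5-2/nhx6-2 replicate 1) and 10 to 27 lower than in nhx6-2 (10 without nhx5-2/nhx6-2 replicate 1). It gave 0 members different between the double lines throughout, and 19 to 42 probe sets meeting the limits. The non-additive effect passed in 0 members as fitted, in 9 after quantile normalization, in 8 with only the compared genotypes, in 8 without both arrays of narrow spread, and in 0 to 5 when 1 array was left out (5 without nhx6-2 replicate 3). Without both arrays of narrow spread, a setting chosen after seeing the data, 32 probe sets met the limits. AT1G11850 passed in nhx5-1/nhx6-1 with shifted medians (limma adjusted p = 0.0426) and without replicate 3 of that line (0.0341). Replicate numbers did not pair the arrays: deviations of same-numbered arrays correlated at −0.36 to 0.35, 6 of 30 pairs above 0.1. With a replicate block, 30 and 28 members passed in nhx5-2/nhx6-2 and nhx5-1/nhx6-1, and 24 and 23 were lower in nhx5-2/nhx6-2 than in nhx5-2 and nhx6-2. The ribosomal counts in nhx5-2/nhx6-2 ranged with the scaling; for the 42 small-subunit genes they were 12 as fitted, 19 after quantile normalization and 20 without both arrays of narrow spread. Differences of dim genes such as CSLA03 and ACT11 are limited by the no-target level. Other probe sets of member genes gave no value, as none is annotated to a member; 8730 probe sets are not listed in the annotation used and 503 have several genes.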
